A study of Bos taurus with 45 samples.

Results

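The genes COX1 (ENSBTAG00000043561), COX2 (ENSBTAG00000043556), COX3 (ENSBTAG00000043560), ATP6 (ENSBTAG00000043584), ND4 (ENSBTAG00000043577) and CYTB (ENSBTAG00000043550) of the mitochondrial genome were followed in the ruminal papillae of beef heifers through a gradual change to a high grain diet. These 6 members were chosen by identifier, for their abundance in these same samples, out of the 24616 genes listed for each sample, and all 6 passed the filter of the tests, which kept 11516 genes whose RPM exceeded 1 in each of the 15 heifers for 1 diet or more. RPM is the number of reads on a gene per 1000000 reads on all genes. The study sampled papillae from the same 15 heifers (Angus and Hereford crosses, healthy by their labels) under 3 diets, which gave 45 samples. Diets are named here as in the sample labels: 3% grain (days 1 to 4), 75% grain (days 13 to 16) and 92% grain (days 21 to 29). The study's own text gives somewhat lower grain percentages for the same 3 diets, so these figures serve as names and may not be the exact shares fed. Every heifer received the diets in that order, and heifers kept on the first diet were not analysed here, so that diet and time in the experiment cannot be told apart.

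Mitochondria make most of the ATP of a cell by oxidative phosphorylation, in which electrons from fuel molecules pass along protein complexes of the inner membrane and the proton gradient this builds drives ATP synthase. Most subunits of these complexes are encoded in the nucleus, but a small core set is encoded in the mitochondrial DNA itself. This DNA is copied into long transcripts from each strand. These are then cut, mostly at the tRNAs, into shorter messages, most of which are given poly(A) tails. The rumen epithelium is rich in mitochondria in its basal layers, where short chain fatty acids taken up from the rumen, butyrate above all, are oxidised or turned into ketone bodies. Of the 13 protein-coding genes that RefSeq lists for the bovine mitochondrial genome, COX1 and COX2 are neighbours, as are ATP6 and COX3, while ND4 lies between ND4L and ND5 and CYTB is last in the order that starts with ND1. The other 7 could not be matched to identifiers of these files and are not described here.

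COX1 was the most abundant gene of the tissue, at a mean of 85914 RPM over the 45 samples, and it ranked 1 in every sample. COX3 had the rank 3 by mean RPM, CYTB the rank 4, COX2 the rank 9, ATP6 the rank 12 and ND4 the rank 13. The median gene tested had a mean of 21.9 RPM. Of all other genes, 7 lay above ND4 (6795 RPM), the lowest of the members, and the next gene below it had 6518 RPM. RPM takes no account of the length of a transcript, so these ranks describe shares of reads and not numbers of molecules.

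The 6 members together held from 10.5% to 21.4% of the reads on genes of a sample. On 3% grain their summed share was 11.0% at the lowest, 14.3% at the median and 18.8% at the highest, with a mean of 14.6% ± 2.26 (SD, n = 15). On 75% grain it was 10.5%, 13.1% and 14.4%, with a mean of 12.9% ± 1.19. On 92% grain it was 11.0%, 12.9% and 21.4%, with a mean of 13.3% ± 2.50. The 3 diets overlapped. Heifer 286 on 92% grain stood apart at 21.4%, since the next heifer on that diet had 15.4%, and without it the mean was 12.8% ± 1.19 (n = 14), with a spread like that on 75% grain. All 6 members had their highest level of the 45 samples in that library, from 1.62 times the median of the diet for COX1 to 1.79 times for ATP6.

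**Figure D1:**
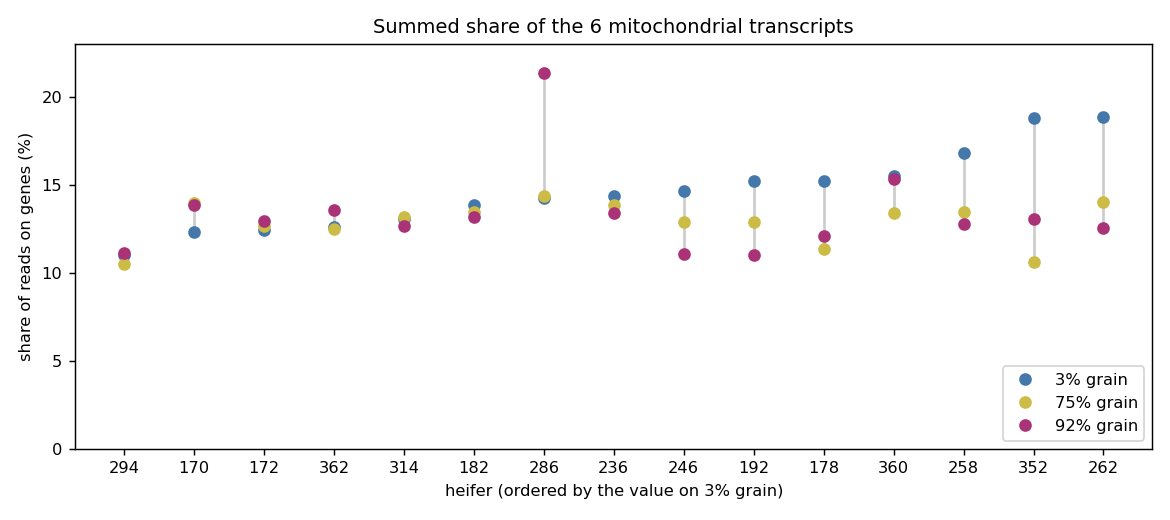
Summed share of the 6 mitochondrial transcripts (COX1, COX2, COX3, ATP6, ND4, CYTB) among the reads on genes, in percent (y axis), for each heifer (x axis, ordered by the value on 3% grain), with 1 point per diet and a grey line joining the points of a heifer. Heifers 352 and 262 were highest on 3% grain at 18.8%, and heifer 286 on 92% grain was highest of all at 21.4%.

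Within heifers, the summed share was lower on 75% than on 3% grain in 11 of 15, by a mean of -1.73 percentage points (SD 2.50) and a median of -0.49. The mean was drawn down by a few animals: heifer 352 differed by -8.15 points and heifer 262 by -4.81, the pair that had been highest on 3% grain. Between 3% and 92% grain the share was lower in 10 of 15 heifers, by a mean of -1.27 points (SD 3.38), or -1.86 without heifer 286, which went the other way by 7.09 points. Between 75% and 92% grain it was higher in 7 of 15 heifers, by a mean of 0.457 points that became -0.0086 without heifer 286. Each mean difference was smaller than the SD of the change between heifers. This SD describes the spread of single heifers and not the uncertainty of the mean. Since the members were chosen with these data known, no test was made on their sum.

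The libraries with the largest share of the 6 members had TMM factors among the lowest of their diets. TMM is a normalization factor that falls below 1 where few genes take up many reads. It was computed on the same RPM, with the 6 members among the rows, so it is tied in part to their share and is not an independent sign. It also depends on the other genes, and how much of it came from them was not tested. It was 0.833 for heifer 286 on 92% grain, against a median of 1.03 on that diet, and 0.899 and 0.906 for heifers 352 and 262 on 3% grain, against a median of 0.971. The study states that it set a minimum RNA integrity for its libraries and placed samples of every diet in each lane. The RNA quality and the lane of single samples were not given in the sources used here, and their part in these libraries was not tested. In papillae, which are bulk tissue, a difference in the number of cells rich in mitochondria and one in mitochondrial RNA per cell cannot be told apart. The label of the tissue could not be checked against marker genes, because the files pair no identifier with a name.

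ND4 is a membrane subunit of complex I, the NADH dehydrogenase through which most electrons enter the respiratory chain. On 3% grain its level was 5192 RPM at the lowest (heifer 294), 6483 at the median and 8478 at the highest (heifer 352). On 75% grain it was 5180.5 RPM (heifer 362), 6324 and 9009 (heifer 182). On 92% grain it was 6059 RPM (heifer 294), 7013 and 11589 (heifer 286), with 8093 as the second highest. The diets overlapped, and the lowest and the median heifer lay higher on 92% grain than on the others. ND4 was higher on 92% than on 75% grain in 13 of 15 heifers, with heifers 182 and 192 as the exceptions, and 4.16% of the other 11510 genes tested had 13 or more heifers on the same side. Against 3% grain it was higher in 11 of 15 on 92% grain and in 7 of 15 on 75% grain.

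CYTB encodes cytochrome b, the mitochondrially encoded subunit of complex III, which passes electrons from ubiquinol to cytochrome c. Its level on 3% grain was 10647 RPM at the lowest (heifer 170), 12830.5 at the median and 18296 at the highest (heifer 352). On 75% grain these were 9979.8 RPM (heifer 178), 11912 and 14443 (heifer 286). On 92% grain they were 9951.7 RPM (heifer 192), 12313 and 20844.5 (heifer 286), with 14178 as the second highest. The ranges of the diets lay over each other, and the widest, on 92% grain, rested on heifer 286. CYTB was lower on 75% than on 3% grain in 11 of 15 heifers and lower on 92% than on 3% grain in 9 of 15.

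COX1, COX2 and COX3 form the catalytic core of complex IV, cytochrome c oxidase, which hands the electrons to oxygen. COX1 carries the heme and copper centre where oxygen is reduced. Its level on 3% grain was 66152 RPM at the lowest (heifer 294), 92000.1 at the median and 126263 at the highest (heifer 262). On 75% grain it was 62350.4 RPM (heifer 352), 80969 and 92612 (heifer 236). On 92% grain it was 61746 RPM (heifer 294), 79471 and 128360 (heifer 286), with 102565 as the second highest. Heifers with the highest COX1 were found on 3% grain, apart from heifer 286, and the highest values were lower on 75% grain, with overlap between all diets. COX1 was lower on 75% than on 3% grain in 12 of 15 heifers, where 29.4% of the other genes were as uniform in direction, and lower on 92% than on 3% grain in 11 of 15.

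COX2 carries the copper site that takes electrons from cytochrome c. On 3% grain its level was 7699 RPM at the lowest (heifer 258), 9655 at the median and 11356 at the highest (heifer 352). On 75% grain it was 7390.3 RPM (heifer 352), 8849.7 and 11200.3 (heifer 286). On 92% grain it was 7329.6 RPM (heifer 352), 8852 and 15588 (heifer 286), with 10825 as the second highest. Heifer 352 thus moved from the top of the group on the first diet to the bottom on the others, and the diets overlapped. COX2 was lower on 75% than on 3% grain in 12 of 15 heifers.

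COX3 is the third core subunit, which holds no metal centre. Its level on 3% grain was 9804 RPM at the lowest (heifer 294), 13821 at the median and 19249 at the highest (heifer 352). On 75% grain it was 9908 RPM (heifer 294), 12885 and 16032 (heifer 182). On 92% grain it was 10509 RPM (heifer 246), 13059.9 and 23054 (heifer 286), with 16110 as the second highest. The diets overlapped, and their medians differed by less than the SD of any diet. COX3 was higher in 8 and lower in 7 of 15 heifers on 92% against 3% grain.

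ATP6 encodes the subunit of ATP synthase, complex V, that lets protons through the membrane. On 3% grain it was found at 6300.4 RPM at the lowest (heifer 360), 7475 at the median and 11131 at the highest (heifer 352). On 75% grain it was found at 6181 RPM (heifer 360), 7519 and 9348 (heifer 286). On 92% grain it was found at 7131 RPM (heifer 360), 7888 and 14152 (heifer 286), with 9034 as the second highest. Heifer 360 was the lowest on every diet, and the lower end of the range was higher on 92% grain. ATP6 was higher on 92% than on 75% grain in 11 of 15 heifers.

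**Figure D2:**
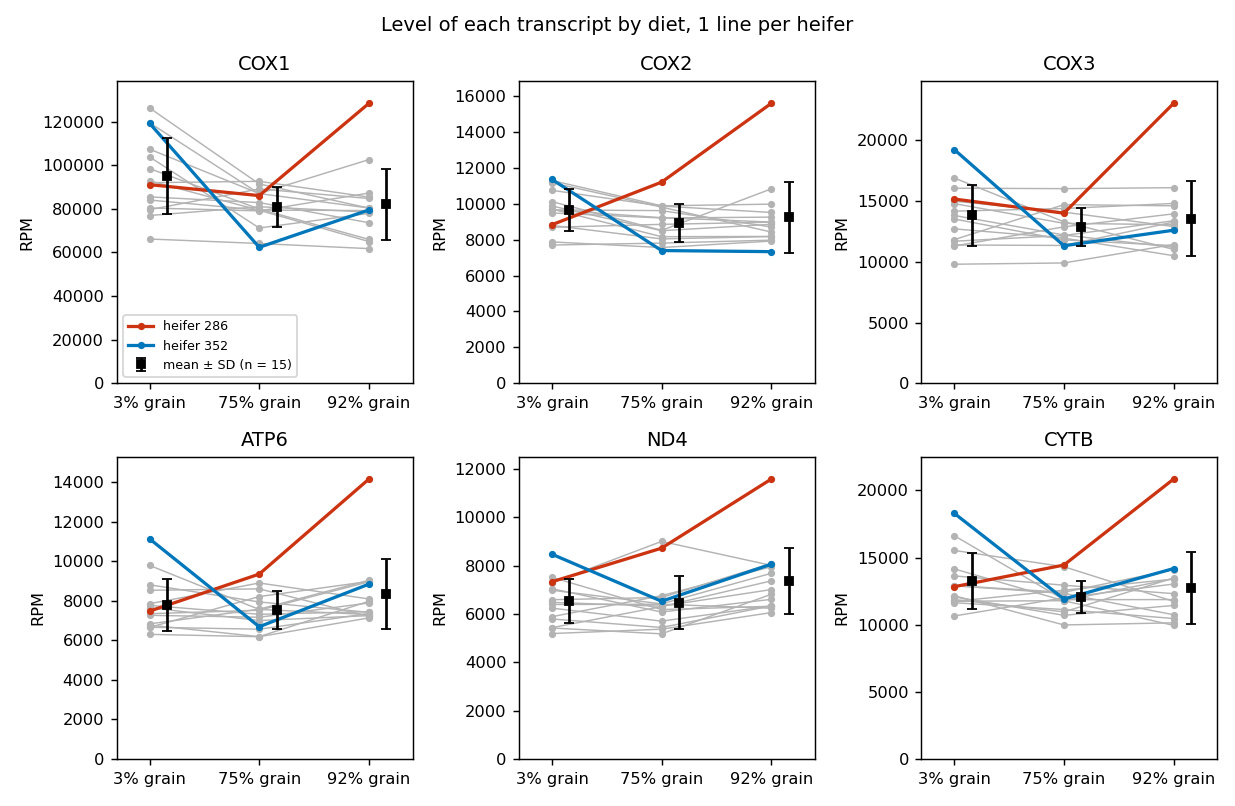
Level of each mitochondrial transcript in RPM (y axes start at 0 and differ between panels) on the 3 diets (x axis), with 1 line per heifer and black squares for the mean ± SD of 15 heifers. Heifer 286 (red) was highest for all 6 transcripts on 92% grain, and heifer 352 (blue) was among the 4 highest of all 45 samples for each transcript on 3% grain.

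Diet comparisons were then tested with limma on log2(RPM + 1), over all 11516 genes and with Benjamini-Hochberg adjustment over all of them. A gene was called at an adjusted p under 0.05. Between 75% and 3% grain, 0 of the 6 members were called, where 20.3% of all genes tested were. At an unadjusted p under 0.05 the count of members was also 0 by limma, but 3 with TMM or median-of-ratios factors in limma and 4 each by edgeR and DESeq2 on whole reads. Of all 11516 genes, 3969 passed this by limma, 3302 with TMM and 3325 with median-of-ratios factors, 3346 by edgeR and 3407 by DESeq2. The fitted change of all 6 was negative, from -0.02 for ND4 to -0.22 for COX1 on the log2 scale, while the median of the other genes was 0.08. COX1, the lowest, had a log2 fold change of -0.22 (SE 0.11, adjusted p = 0.172 by limma, 0.0054 to 0.923 over the other settings tried). Of the other 11510 genes, 96.5% had a mean change above that of COX1. For CYTB the change was -0.13 (SE 0.08, adjusted p = 0.252) and for COX2 -0.12 (SE 0.07, adjusted p = 0.253).

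The call of the members in this comparison turned on the test. Neither edgeR nor DESeq2 had the heifer as a term, so both took the samples of a heifer as independent. On whole reads, recovered from RPM, edgeR with TMM called 2 of 6 lower on 75% grain, where it called 7.19% of all genes lower. They were COX1 (log2 fold change -0.33, adjusted p = 0.0219) and CYTB (-0.24, adjusted p = 0.0458). DESeq2 called 3 of 6 lower, and 8.21% of all genes. They were COX1 (-0.33, adjusted p = 0.0054), CYTB (-0.23, adjusted p = 0.0273) and COX2 (-0.21, adjusted p = 0.0287). With edgeR and the deposited scale, without TMM, 1 of 6 was called, COX1 (-0.23, adjusted p = 0.049978), where 20.1% of all genes were, 2090 of them higher and 230 lower. Limma with TMM left all 6 uncalled, with COX1 at -0.31 (adjusted p = 0.131). It called 1501 of all 11516 genes, 826 higher and 675 lower. In the limma fit that took the heifer as a replicate block, 0 members were called, where 27.7% of all genes were. COX1 had an adjusted p of 0.177 in this limma fit.

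Between 92% and 3% grain, 0 of the 6 members were called by limma, where 18.0% of all genes were, and 0 were called by edgeR (17.6% of all genes), by DESeq2 (20.0%) or by limma with the replicate block (20.5%). The count of members at an unadjusted p under 0.05 was 0 by limma and 1 each by edgeR and DESeq2. Of all genes, 3497 passed this by limma, 3601 by edgeR and 3718 by DESeq2. The fitted changes of the 6 members had both signs. COX1 was at -0.21 (SE 0.12, adjusted p = 0.227) and ND4 at 0.16 (SE 0.08, adjusted p = 0.184), either side of the median of 0.06 for the other genes. ATP6 was at 0.09, COX3 at -0.04, CYTB at -0.07 and COX2 at -0.08, with adjusted p from 0.532 to 0.848 by limma. No fold change of a member reached 1.5 in any comparison.

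Between 92% and 75% grain, limma called 0 of all 11516 genes (0% called), and 1330 had an unadjusted p under 0.05. Of the 6 members 0 were called by limma, by edgeR (0.0261% of all genes) and by DESeq2 (0.538%), and 1 had an unadjusted p under 0.05 by limma, ND4, at a log2 fold change of 0.18 (SE 0.09, adjusted p = 0.410, or 0.0880 to 0.607 over the other settings). The fitted changes of the 6 were all positive, from 0.01 for COX1 to 0.18 for ND4, and the median of the other genes was -0.03. Under the replicate block 92 genes were called (0.799%), 0 of them members, and ND4 had an adjusted p of 0.0880 by limma. This value moved between 0.0454, without heifer 182, and 0.167 as single heifers were left out of the blocked fit. The count of all genes called by the blocked fit moved from 12, without heifer 178, 314 or 360, to 228, without heifer 182. The 3 comparisons share samples, and their values for a member are not independent.

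**Figure D3:**
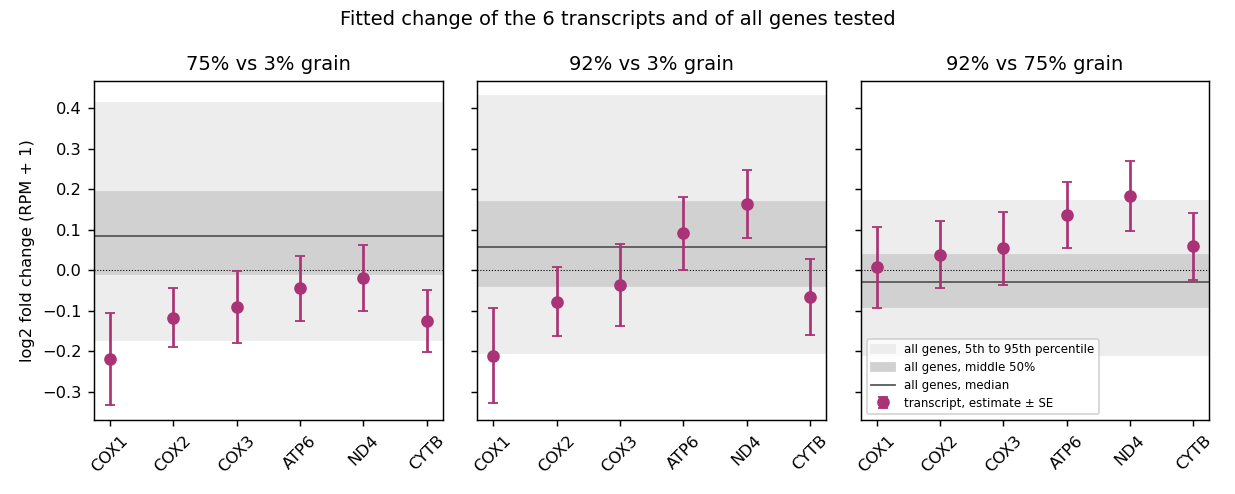
Log2 fold change of the 6 mitochondrial transcripts (points, with bars for the SE of the limma fit, 15 heifers per diet) in the 3 diet comparisons, over the median (dark line), the middle 50% (grey band) and the 5th to 95th percentile (light band) of all 11516 genes tested. COX1 was lowest in all 3 panels and ND4 highest, at -0.22 and -0.02 for 75% against 3% grain, -0.21 and 0.16 for 92% against 3% grain and 0.01 and 0.18 for 92% against 75% grain.

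The balance among the 6 members differed between the first and the last diet in the same direction in most heifers. The ratio of one member to another within a sample does not depend on the total to which RPM is scaled. COX1 made up 64.8% ± 3.03 (SD, n = 15) of the reads of the 6 on 3% grain, 62.7% ± 2.35 on 75% grain and 61.5% ± 2.95 on 92% grain, and its share was lower on 92% than on 3% grain in 14 of 15 heifers. ND4 made up 4.51% ± 0.420, 5.04% ± 0.720 and 5.55% ± 0.515 on the 3 diets, and ATP6 5.37% ± 0.644, 5.85% ± 0.608 and 6.27% ± 0.659. Between 3% and 92% grain both were higher in 15 of 15 heifers, ND4 by 1.04 points (SD 0.589) and ATP6 by 0.901 points (SD 0.503). The share of COX2 was higher in 8 of 15, by 0.244 points (SD 1.06), those of COX3 and CYTB in 12 of 15 each.

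Taken as ratios, COX1 over ND4 was lower on 92% than on 3% grain in 15 of 15 heifers, by -0.38 on the log2 scale (SD 0.21), and COX1 over ATP6 in 15 of 15, by -0.30 (SD 0.18). The nuclear and other genes give the background for these counts: 0.565% of the other 11510 genes were higher relative to COX1 in all 15 heifers, their median change relative to COX1 was 0.27, and 25.6% of them lay above ND4 and 40.7% above ATP6 in this change. The size of the shift was thus within the range of other genes, while its uniformity over heifers was found in 65 of them. These genes were not matched to the members in level or spread, so their share does not measure how unusual the members were. On RPM itself ND4 was higher on 92% than on 3% grain in 11 of 15 heifers and ATP6 in 9 of 15. COX3 was also lower relative to ND4 (-0.20, SD 0.18) and to ATP6 (-0.13, SD 0.12), in 14 of 15 heifers each. The ratio of COX1 to COX3 was lower in 13 of 15 heifers, by -0.17 (SD 0.15), whereas COX2 over CYTB was higher in 7 and lower in 8 of 15 (-0.01, SD 0.24).

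For the ratios of COX1 and of COX3 to ND4 and ATP6, the mean on 75% grain lay between the others. The change from 3% to 75% grain in COX1 over ND4 was -0.20 (SD 0.22, lower in 12 of 15) and from 75% to 92% grain -0.18 (SD 0.21, lower in 11 of 15). For COX1 over ATP6 the changes were -0.17 (SD 0.18) and -0.13 (SD 0.16), lower in 12 of 15 heifers each. Without heifer 286 the change from 3% to 92% grain was -0.39 for COX1 over ND4 and -0.29 for COX1 over ATP6. These are descriptions, and no test was made on ratios between members.

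**Figure D4:**
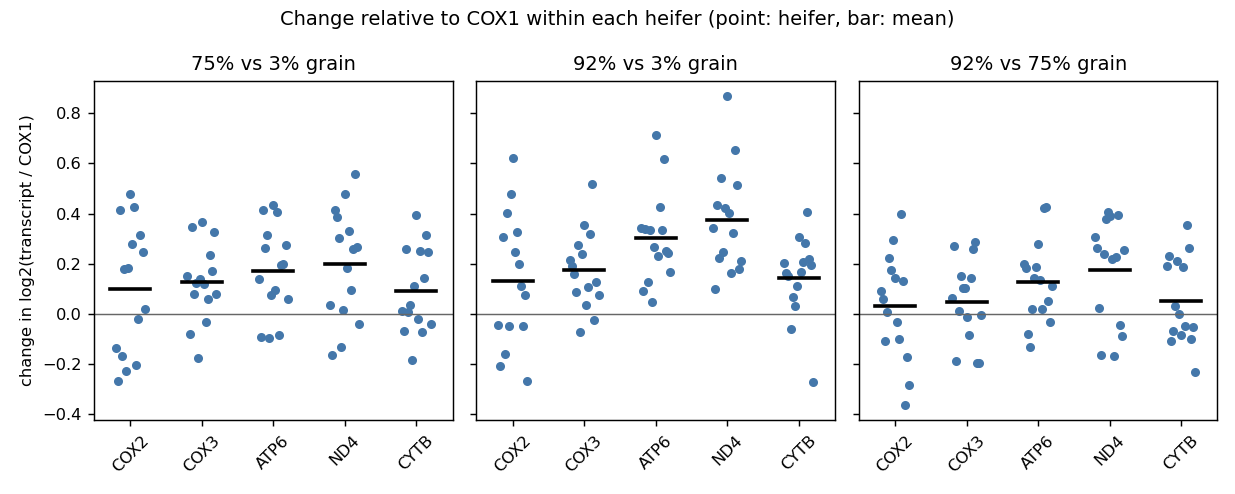
Change between diets in the log2 ratio of 5 mitochondrial transcripts to COX1 (y axis), with 1 point per heifer and a bar for the mean of 15 heifers. For 92% against 3% grain all 15 points of ATP6 (mean 0.30) and of ND4 (mean 0.38) lay above 0, and those of COX2, COX3 and CYTB lay on both sides.

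Over the 45 samples, COX3 and ND4 had the steadiest ratio of the 15 pairs, with an SD of 0.15 on the log2 scale, and COX1 and COX2 the least steady, with an SD of 0.28, although they are neighbours on the genome. ATP6 and COX3, the other neighbouring pair, had an SD of 0.19. Each member was also set against the sum of the other 5. The SD of this log2 ratio was 0.13 for COX3, 0.17 for CYTB, 0.19 for COX1, 0.20 for ATP6, 0.21 for ND4 and 0.24 for COX2. Among the other 11510 genes, the SD of the log2 ratio to the sum of the 6 had a median of 0.37, and its lowest values were 0.16 for ENSBTAG00000031205 and 0.16 for ENSBTAG00000045504, at mean levels of 40.5 and 583 RPM. The fifth lowest was 0.17. The number of these genes with a lower SD than a member was 0 for COX3, 4 for CYTB, 42 for COX1, 64 for ATP6, 82 for ND4 and 306 for COX2. The measures differ in their denominator, which holds all 6 for the other genes but leaves out the member itself for a member. The counts are thus not like for like, above all for COX1, the largest part of the sum. Other genes are given by identifier, since the reference table used here paired none with a symbol.

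The members also differed in how much of their spread belonged to the heifer. The share of the variance of log2 RPM within diets that was held by differences between heifers over the 3 diets was 0.594 for ND4, above that of 95.8% of genes tested. It was 0.334 for COX2, 0.327 for COX3, 0.244 for COX1, 0.224 for CYTB and 0.183 for ATP6, and the median gene had 0.185. Without heifer 286 it was 0.519 for ND4, 0.460 for COX2, 0.310 for COX3 and 0.287 for COX1. CYTB then had 0.202 and ATP6 0.118, against 0.210 for the median gene. Heifer 294 had the lowest ND4 on 3% and on 92% grain.

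Because RPM is scaled to the total of a sample, the share of these 6 genes sets the scale of every other gene. Taking the 6 out of the total multiplies the RPM of another gene by 1.12 (heifer 294 on 75% grain) to 1.27 (heifer 286 on 92% grain), by a mean of 1.17 on 3% grain, 1.15 on 75% grain and 1.15 on 92% grain. A gene with the same share of the remaining reads in those 2 libraries would thus be listed 1.14-fold apart. When the 6 were left out of each total, the median log2 fold change of the other genes between 75% and 3% grain went from 0.08 to 0.06, and that between 92% and 3% grain from 0.06 to 0.04.

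Calls moved with this scale mostly in 1 direction. For 75% against 3% grain, 2343 genes were called by limma with all rows in the total, 2127 higher and 216 lower (90.8% higher). With the 6 left out, 1845 were called, 1534 higher and 311 lower (83.1% higher). The 2 lists shared 1750 genes, 74.7% of the first and 94.9% of the second. Leaving out the 6 shifts the log2 fold change of every other gene by about the same amount (median -0.028), which fixes the direction of the calls lost and gained: all 593 genes called only on the deposited scale were higher on 75% grain, and all 95 called only without the 6 were lower. ENSBTAG00000021573 and ENSBTAG00000006296 were among the first, with log2 fold changes of 0.15 (adjusted p = 0.0069 by limma) and 0.15 (adjusted p = 0.0118) that became 0.12 (adjusted p = 0.0511) and 0.12 (adjusted p = 0.0557). ENSBTAG00000015278 was among the others, at -0.13 (adjusted p = 0.0501) and then -0.16 (adjusted p = 0.0153).

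For 92% against 3% grain the number of calls was nearly the same, 2076 with all rows and 2047 with the 6 left out, but its split moved from 1740 higher and 336 lower (83.8% higher) to 1548 and 499 (75.6% higher). The lists shared 1881 genes, 90.6% of the first and 91.9% of the second. Of the 195 genes called only on the deposited scale 194 were higher on 92% grain, and of the 166 called only without the 6 members 164 were lower. For 92% against 75% grain the count went from 0 to 1, ENSBTAG00000017869, which was lower on 92% grain (-0.43, adjusted p = 0.0757, and then -0.42, adjusted p = 0.0488).

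In limma, TMM and median-of-ratios factors moved the split further than leaving out the 6 members did. Both kinds of factor assume that the typical gene does not change and set its change near 0. A median near 0 and a near even split are thus built in, and do not tell whether the response of the genes was balanced. With TMM factors limma called 1501 genes between 75% and 3% grain, of which 55.0% were higher, and with median-of-ratios factors 1519, of which 53.1% were higher. On whole reads, where the test differs too, edgeR called 1565 with TMM (47.1% higher) and 2320 without it (90.1% higher), and DESeq2 with its own size factors called 1839 (48.6% higher). For 92% against 3% grain TMM gave 2008 calls (54.9% higher), median of ratios 2017 (54.2% higher), edgeR 2029 with TMM (53.7% higher) and 2086 without it (82.0% higher), and DESeq2 2302 (51.0% higher). TMM took the median change of the other genes to 0.002 for 75% against 3% grain, where leaving out the 6 members had left 0.058. The direction of each member's fitted change was the same on every one of these scales.

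**Figure D5:**
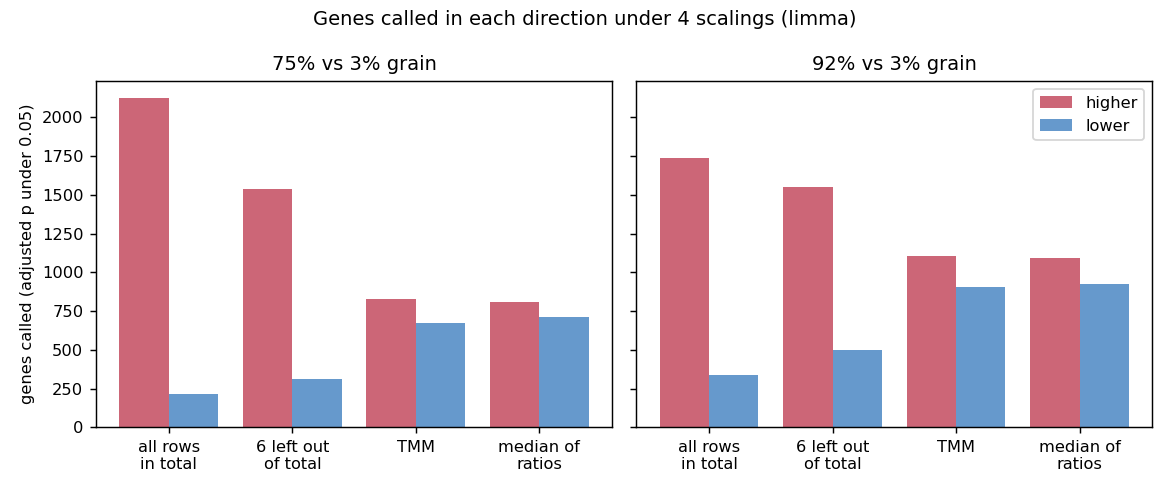
Number of genes called by limma (adjusted p under 0.05, y axis from 0) as higher (red) or lower (blue) on 75% (left) and on 92% grain (right) than on 3% grain, with the deposited RPM, with the 6 mitochondrial transcripts left out of the total, and with TMM or median-of-ratios factors. Called genes were 90.8%, 83.1%, 55.0% and 53.1% higher in the left panel and 83.8%, 75.6%, 54.9% and 54.2% higher in the right panel. TMM and median-of-ratios factors set the change of the typical gene near 0, so a near even split is built in.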

How the data were processed

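Papillae were extracted with Trizol, and libraries were made with an mRNA kit and sequenced in pairs. The authors aligned the reads to UMD 3.1 with TopHat2 2.0.10 (CASAVA 1.8 before it), counted reads on Ensembl genes with HTSeq and deposited RPM, 1 file per sample. Strand and the handling of reads shared between genes are not given in the sources used here, so counts of mitochondrial genes, which overlap neighbours and have nuclear copies, are uncertain in this respect. The RPM of a sample summed to 1000000. All 1107720 values (100%) were whole reads to within 0.01 of a read, which gave 22.5 to 37.1 times 1000000 reads on genes per sample (median 30.8) and 132875 to 3965763 reads per member, with a 95% Clopper-Pearson interval of at most ± 0.537% of a level. This covers counting error only. Whether 1 count stands for a read or a pair was not settled. No libraries were duplicates (990 pairs, smallest chi-square per degree of freedom 20.6).

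The test was limma 3.58.1 (R 4.3.3), fitted to log2(RPM + 1) of the 11516 genes whose RPM exceeded 1 in each of the 15 heifers for 1 diet or more, with a trend of variance over level and without the heifer as a term, on the 30 samples of each comparison. A fold change is on this log2 scale. Adjusted p are Benjamini-Hochberg values. Other settings were a replicate block for the heifer, factors by TMM or by median of ratios, the 6 left out of the total and pseudocounts of 0.1 and 0.5. Further settings were other filters, no trend, all 45 samples in 1 fit, edgeR 4.0.16 and DESeq2 1.42.0 on whole reads, and each heifer left out. Neither edgeR nor DESeq2 was run with the heifer as a term. On simulated data for 75% against 3% grain (11516 genes, 200 changed by a fold of 2) limma recovered 98%, with 10 false calls. The simulated samples were not paired by heifer and held no shift of the RPM scale. Changes as small as those of the members were not simulated, so these counts do not give the power or the false calls to be had for them. Numbers in the labels name the heifer, so they pair the samples (median correlation of deviations 0.356 over 45 pairs of the same heifer, -0.022 over 630 other pairs). Members and lists were chosen with earlier results of these data known. Genes named by identifier were those with the smallest SD of the ratio to the sum of the 6, and those with the smallest adjusted p among genes called on only 1 scale. Groups were taken from the labels alone, which give no ruminal pH group (the study's supplement lists heifers of some), so pH groups were not compared. Python 3.11.15, numpy 2.4.6, pandas 2.3.3, scipy 1.17.1 and matplotlib 3.10.9 were used for summaries and plots.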

Additional observations from a re-analysis of the deposited data

How the results depend on the processing

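Members called between 75% and 3% grain went from 0 to 2 with edgeR, 1 with edgeR without TMM (an alternative chosen after seeing the data) and 3 with DESeq2. In the other settings and comparisons 0 members were called, except that ND4 passed between 92% and 75% grain in the replicate block without heifer 182 (adjusted p = 0.0454 by limma, also chosen after seeing the data). Genes called between 75% and 3% grain fell to 1501 with TMM and 1519 with median-of-ratios factors, both without the heifer as a term. With the replicate block 3193 were called. In fits chosen after seeing the data, the replicate block gave 2747 with the 6 left out and 2426 with TMM. Between 92% and 75% grain the 0 became 92 with the replicate block, 7 with TMM, 7 with median of ratios, 1 with the 6 left out of the total, 3 with edgeR and 62 with DESeq2, and, in fits chosen after seeing the data, 116 with the replicate block and the 6 left out and 193 with the replicate block and TMM. Leaving out each heifer gave 0 to 27 calls there (27 without heifer 236), 1791 to 2490 between 75% and 3% grain and 1647 to 2512 between 92% and 3% grain (2512 without heifer 286). The blocked fit gave 12 to 228 calls between 92% and 75% grain as single heifers were left out. The replicate block on all heifers changed no call of a member. The cause of these shifts was not tested.

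Leaving out single heifers turned the sign of uncalled changes near 0. The log2 fold change of ATP6 (-0.0708 to 0.0047) and ND4 (-0.0414 to 0.0073) for 75% against 3% grain turned without heifer 352, and for ND4 also without heifer 262. That of COX3 for 92% against 3% grain (-0.0818 to 0.0053) turned without either of these, and that of COX1 for 92% against 75% grain (-0.0335 to 0.0283) without any of 5 heifers, 286 among them. The difference in summed share was -1.97 to -1.27 points, -1.86 to -0.909 points and -0.0086 to 0.623 points over the heifers left out, in the order 75% against 3%, 92% against 3% and 92% against 75% grain. With medians over heifers it was -1.21, -1.41 and -0.201 points, and with TMM -2.63, -1.83 and 0.805 points. Leaving every mitochondrial row out of the total, or taking their share in place of the 6, was not run, because the other mitochondrial genes could not be matched to identifiers. The planned lists of nuclear respiratory chain genes and of cell type markers could not be matched either.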
